A study of Homo sapiens with 8 samples.

Results

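The peroxiredoxins PRDX1 to PRDX6, the thioredoxins TXN and TXN2 and sulfiredoxin SRXN1 were followed by ribosome profiling in the ovarian cancer cell line OVCAR3. The 9 genes were taken by name from 20165 counted regions, of which 19612 could be given a gene symbol. PRDX3 was selected on its normalized coding counts, which were far lower after knockdown of TARG1 than in control cells, and the others were chosen by name as its paralogs and partners. Their differences in that comparison are therefore given as description without a test. Ribosome profiling sequences the mRNA stretches that ribosomes protect from nuclease. The number of such footprints on a coding sequence depends both on how much mRNA is present and on how heavily it is translated, and the footprint counts cannot tell these apart. RNA-seq was not analysed here.

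The 8 libraries form 4 groups of 2. For siControl and siTARG1, OVCAR3 cells received siRNA against TARG1 or a control siRNA, each at 30 nM, and were collected after 48 h. TARG1, whose gene symbol is OARD1, is an enzyme that removes mono(ADP-ribose) from proteins. For RACK1-WT and RACK1-Mut, OVCAR3 cells carried a doxycycline-inducible shRNA against endogenous RACK1 (pTRIPZ) together with a doxycycline-inducible HA-tagged RACK1 (pInducer20), and were kept in 1 µg/ml doxycycline for 48 h. RACK1 sits on the small subunit of the ribosome. In RACK1-Mut the re-expressed protein has its mono(ADP-ribose) acceptor sites mutated. Both RACK1 groups therefore share the shRNA, the inducer and a transgene, and neither is untreated. The methods describe sequencing experiments as repeated on independent biological samples, and the labels number the 2 libraries of a group as replicates.

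Coding footprints numbered 3100947 to 6604190 per library. OARD1, the knockdown target, had 121 and 69.1 normalized counts in siControl and 5.83 and 6.75 in siTARG1. RACK1 had 23334 and 23594 in RACK1-WT and 17745 and 17274 in RACK1-Mut. Markers of ovarian carcinoma epithelium were present in every library, among them PAX8 (369 to 587 CPM, counts relative to the coding total of the library) and EPCAM (539 to 755), while CLDN4 was listed at 0 in all. Of 7 markers of other cell types, CDH5 (endothelium) and CD3E (T cells) were at 0, PTPRC (leukocytes) was at 0 to 0.324 CPM, DCN and COL3A1 (fibroblasts) at 0 to 0.303 and 0 to 1.58, CD14 (monocytes) at 1.43 to 8.10 and COL1A1 (fibroblasts) at 18.4 to 37.4.

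Peroxiredoxins are thiol peroxidases. An active-site cysteine reacts with hydrogen peroxide, and in most members the resulting disulfide is reduced by thioredoxin, which is in turn reduced by thioredoxin reductase with NADPH. PRDX1, PRDX2 and PRDX6 act in the cytosol, PRDX4 in the endoplasmic reticulum, PRDX3 in the mitochondrial matrix and PRDX5 in mitochondria, peroxisomes and cytosol. TXN serves the cytosol and nucleus, TXN2 and its reductase TXNRD2 serve mitochondria, and SRXN1 repairs over-oxidised peroxiredoxins.

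The codons around the active-site cysteine are printed to show how alike the paralogs are there, and how far a footprint could be assigned to one of them. The peroxiredoxins are compared with each other and TXN with TXN2. The lines of different families, SRXN1 included, are not aligned positions. Each line runs 5′ to 3′ in the coding strand, was read from GENCODE transcripts and matches GRCh37, and has the cysteine codon in capitals.
PRDX1: ttcacctttgtgTGCcccacggagatc
PRDX2: ttcacttttgtgTGCcccaccgagatc
PRDX3: ttcacctttgtgTGTcctacagaaatt
PRDX4: ttcacatttgtgTGTccaactgaaatt
PRDX5: ttcacccctggaTGTtccaagacacac
PRDX6: tttaccccagtgTGCaccacagagctt
TXN: tcagccacgtggTGTgggccttgcaaa
TXN2: cacgcacagtggTGTggaccctgcaag
SRXN1: tcctttgggggcTGCcaccgctacgcg
The capitals mark codon 52 of PRDX1, 51 of PRDX2, 108 of PRDX3, 124 of PRDX4, 100 of PRDX5, 47 of PRDX6, 32 of TXN, 90 of TXN2 and 99 of SRXN1. Over these 27 bases PRDX3 differs from PRDX4 at 3 bases, from PRDX1 at 5, from PRDX2 at 6, from PRDX6 at 9 and from PRDX5 at 13. PRDX1 and PRDX2 differ at 2, and TXN and TXN2 at 9. Over the whole coding sequence, the share of aligned bases that are identical was 72.4% for PRDX1 and PRDX2, 68.7% for PRDX1 and PRDX3, 64.5% for PRDX3 and PRDX4, and 58.9% for TXN and TXN2. No stretch of 28 bases, the length of a short footprint, was shared between the coding sequences of any pair of members. Stretches of that length were shared with transcripts of other genes, and for each member but PRDX4 and SRXN1 the gene sharing most of them was a processed pseudogene. They made up 26.2% of PRDX3 (195 of 744 windows, 122 of them with PRDX3P1), 18.2% of PRDX1, 24.2% of PRDX2, 17.3% of PRDX6, 2.6% of PRDX5, 43.3% of TXN and 11.2% of TXN2. PRDX4 shared none. SRXN1 shared 46.3% with an overlapping protein-coding gene, and 210 of its 414 coding bases were counted. Its values are uncertain for that reason, and for its 18 to 50 coding counts per library.

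The members lie on 8 chromosomes (GRCh37), so they form no cluster. PRDX1 is at chr1:45976586-46008404 (minus strand), PRDX6 at chr1:173446469-173457954 (plus), PRDX2 at chr19:12907634-12912614 (minus), PRDX3 at chr10:120927232-120938324 (minus), PRDX4 at chrX:23682379-23704514 (plus) and PRDX5 at chr11:64085593-64089283 (plus). TXN is at chr9:113006090-113018787 (minus), TXN2 at chr22:36863093-36877687 (minus) and SRXN1 at chr20:627259-633844 (minus). Reads from the coding parts of single transcripts were counted for 7 of the members, and PRDX1 and TXN2 were each counted over 2 transcripts.

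To compare genes of different length, levels were expressed as CPM per kilobase of counted coding sequence. In siControl cells PRDX1 had the highest level of the members, at 2375 ± 78.8 (SD, n = 2 here and below). The next levels were TXN at 1581 ± 77.1, PRDX6 at 826 ± 3.15, PRDX5 at 516 ± 45.4 and PRDX3 at 400 ± 37.4. PRDX2 followed at 211 ± 13.7, then TXN2 at 91.7 ± 12.3, PRDX4 at 71.2 ± 1.82 and SRXN1 at 30.1 ± 0.912. The first 4 places went to PRDX1, TXN, PRDX6 and PRDX5 in all 8 libraries, and SRXN1 was last in all 8. PRDX3 was in place 5 in both libraries of siControl, RACK1-WT and RACK1-Mut, and in place 8 in both siTARG1 libraries. Its level per kilobase was 50.3 ± 4.05 in siTARG1, 359 ± 15.96 in RACK1-WT and 369 ± 2.31 in RACK1-Mut. Among all regions with counts, PRDX3 stood at percentile 74.5 and 76.5 in the siTARG1 libraries and between 96.1 and 96.5 in the other 6. TXN2 and PRDX4 traded places. TXN2 was ahead in siControl, and PRDX4 was ahead in siTARG1 (105 ± 0.986 against 87.4 ± 16.3), RACK1-WT (111 ± 8.54 against 71.9 ± 2.98) and RACK1-Mut (120.0 ± 1.78 against 74.5 ± 4.24).

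**Figure D1:**
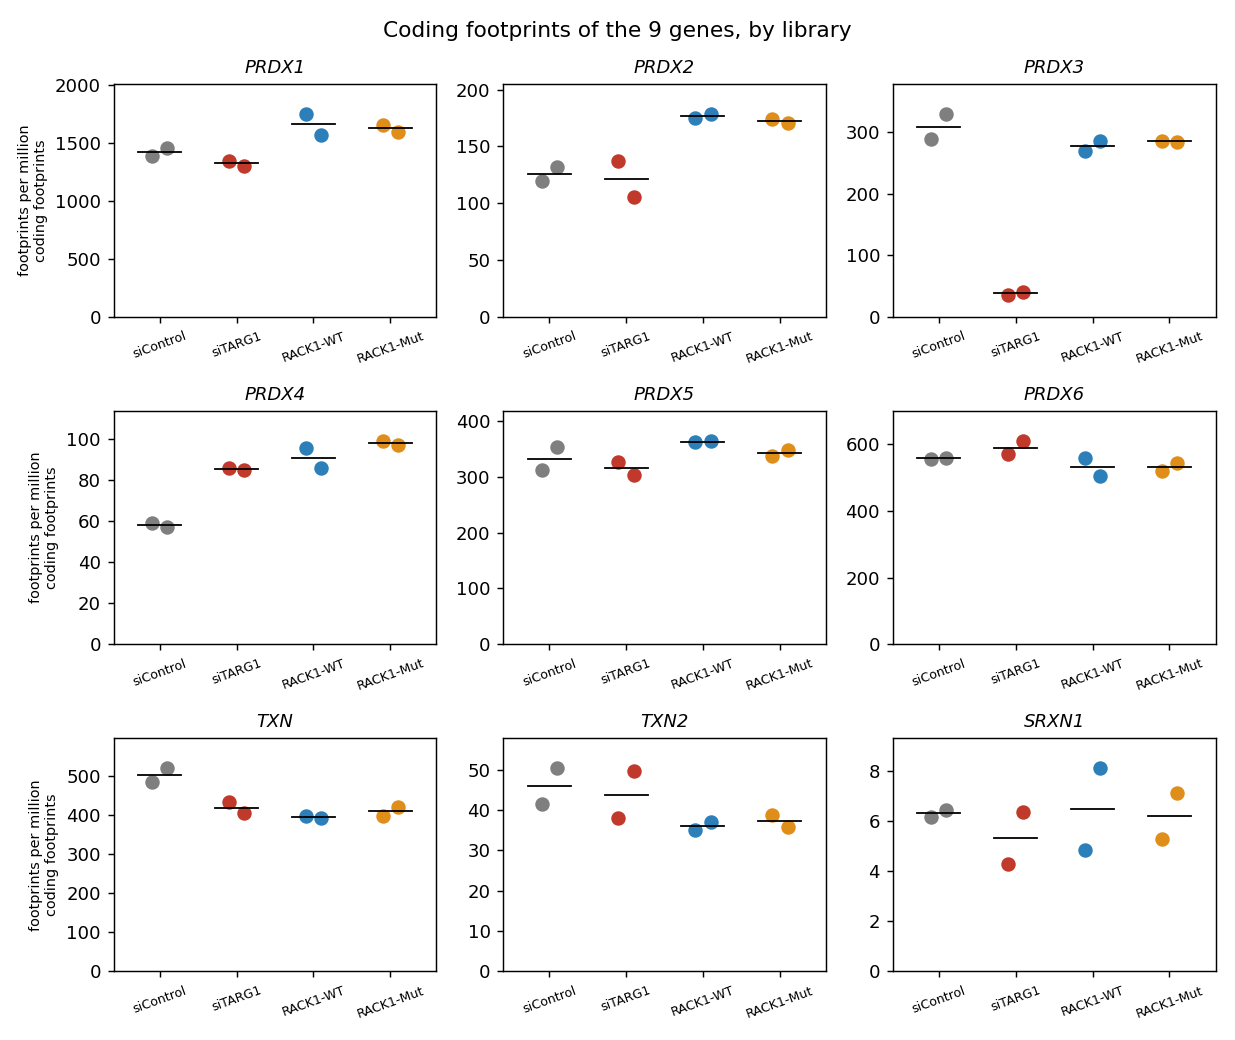
Coding footprints of each member in CPM, on a linear axis from 0, with 1 panel per gene, 1 point per library coloured by group and a line at each group's mean. PRDX3 stands at 308 ± 28.9 in siControl, 38.8 ± 3.12 in siTARG1, 277 ± 12.3 in RACK1-WT and 285 ± 1.78 in RACK1-Mut, while the other members differ less between the groups.

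The siTARG1 and siControl cells were compared to see how ribosome occupancy differs after TARG1 siRNA. The labels do not say which of the TARG1 siRNAs in the methods was used. Lower TARG1 and other effects of the siRNA cannot be told apart in this comparison. PRDX3, the peroxidase of the mitochondrial matrix, had 1064 and 1215 normalized counts in siControl and 128 and 145 in siTARG1. The siTARG1 libraries held 11.99% of the siControl mean, a log2 fold change of -3.07 (SE 0.147), at place 44 from the lowest of the 12056 genes tested. No other member came near this. The log2 fold changes of the other 8 ran from -0.33 to 0.48, and the median over all 9 was -0.15, beside 0.00315 over all genes tested.

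The other mitochondrial members did not share the low values. PRDX5, which is found in mitochondria among other places, had 1154 and 1306 normalized counts in siControl and 1144 and 1075 in siTARG1 (log2 fold change -0.15, SE 0.102). TXN2, the mitochondrial thioredoxin, had 154 and 186 in siControl and 133 and 175 in siTARG1 (-0.14, SE 0.236), and its groups overlapped. In raw counts PRDX3 had 0.922 and 0.930 times as many footprints as PRDX5 in the siControl libraries, and 0.112 and 0.135 times as many in the siTARG1 libraries. Relative to TXN2 the ratio went from 6.92 and 6.53 to 0.963 and 0.827, so that PRDX3 stood well above TXN2 in siControl and just below it in siTARG1. These ratios are taken within a library and do not depend on how libraries were scaled.

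Among the cytosolic members, PRDX1 had 5146 and 5390 normalized counts in siControl and 4729 and 4596 in siTARG1 (log2 fold change -0.18, SE 0.0656). PRDX6, a member with a single catalytic cysteine, had 2056 and 2066 against 1998 and 2151 (0.01, SE 0.0811). PRDX2 had 444 and 486 against 479 and 374 (-0.12, SE 0.155). PRDX1 lay lower in both siTARG1 libraries by a small margin, whereas the groups overlapped for PRDX6 and PRDX2. TXN, the cytosolic thioredoxin, had 1796 and 1923 in siControl and 1517 and 1439 in siTARG1 (-0.33, SE 0.0872). PRDX4, the member of the endoplasmic reticulum, went the other way, with 219 and 211 in siControl and 301 and 300.3 in siTARG1 (0.48, SE 0.178). SRXN1 had 22.9 and 23.8 against 15.0 and 22.5 (-0.33, SE 0.603), an interval of -1.51 to 0.85 that spans a wide range in both directions. PRDX4, whose active-site stretch is the closest to that of PRDX3, thus had the opposite sign.

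By DESeq2 at an adjusted p below 0.05, 4 of the 9 members were called, with PRDX1, PRDX3 and TXN lower and PRDX4 higher, in a comparison where 16.4% of all genes tested were called. In 6 of the 9 both siTARG1 libraries lay on one side of both siControl libraries, beside 62.6% of all genes tested. The members were chosen with this comparison in view, and nothing is read from these counts. With any 1 of the 4 libraries left out, the log2 fold changes ran from -3.17 to -2.97 for PRDX3, -0.22 to -0.15 for PRDX1, 0.46 to 0.50 for PRDX4 and -0.39 to -0.28 for TXN, and PRDX1, PRDX4 and TXN were then no longer called.

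**Figure D2:**
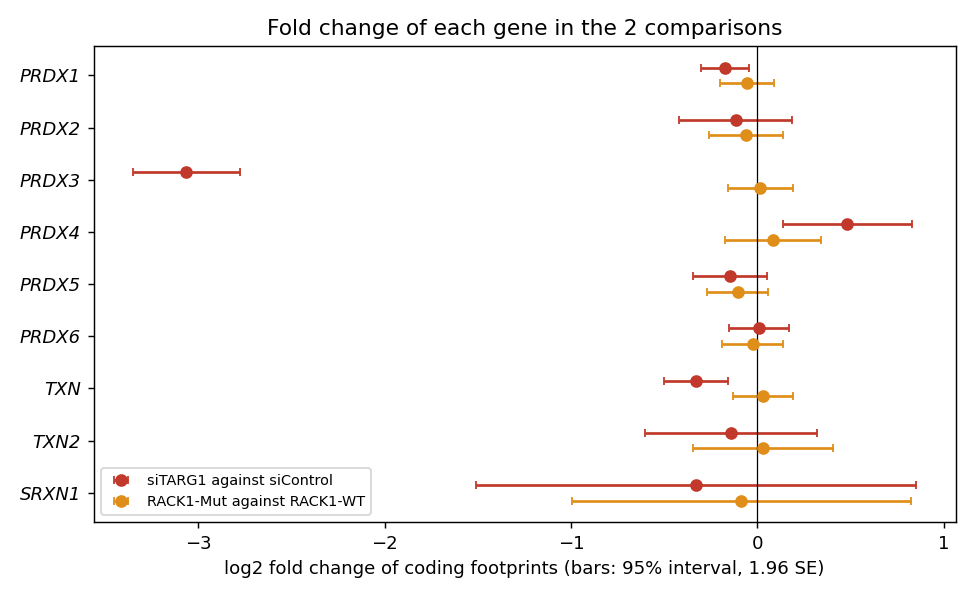
Log2 fold change of coding footprints for each member in siTARG1 against siControl and in RACK1-Mut against RACK1-WT; points are DESeq2 estimates and bars their 95% intervals. PRDX3 stands at -3.07 in the first comparison and at 0.02 in the second, and the other members lie between -0.33 and 0.48.

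Counting footprints within the peroxiredoxin family removes library scaling altogether. PRDX3 took 10.6% of all PRDX1 to PRDX6 coding counts in siControl 1 (exact 95% binomial interval 10.0% to 11.1%) and 11.4% in siControl 2 (10.7% to 12.1%). It took 1.46% in siTARG1 1 (1.24% to 1.71%) and 1.68% in siTARG1 2 (1.40% to 1.99%). The intervals cover counting error only. PRDX1 held the largest share throughout, at 50.8% ± 0.382 in siControl and 53.5% ± 0.478 in siTARG1. PRDX6 went from 19.9% ± 0.733 to 23.8% ± 1.51 and PRDX4 from 2.07% ± 0.137 to 3.45% ± 0.0304. The family total includes PRDX3, so its lower count raises the shares of the others by construction. The normalized counts of PRDX6 (log2 fold change 0.01) and PRDX1 (-0.18) were not higher in siTARG1, whereas those of PRDX4 were (0.48). The family as a whole had 2726 and 2888 CPM in siControl and 2507 and 2443 in siTARG1. Without PRDX3 these values were 2439 and 2559 against 2471 and 2402, which overlap. Unlike the shares, these totals in CPM depend on how libraries were scaled. By normalized counts the log2 fold changes were -0.18 for PRDX1, -0.12 for PRDX2, -0.15 for PRDX5, 0.01 for PRDX6 and 0.48 for PRDX4. An equal total of the 5 other peroxiredoxins is therefore not read from the CPM values.

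**Figure D3:**
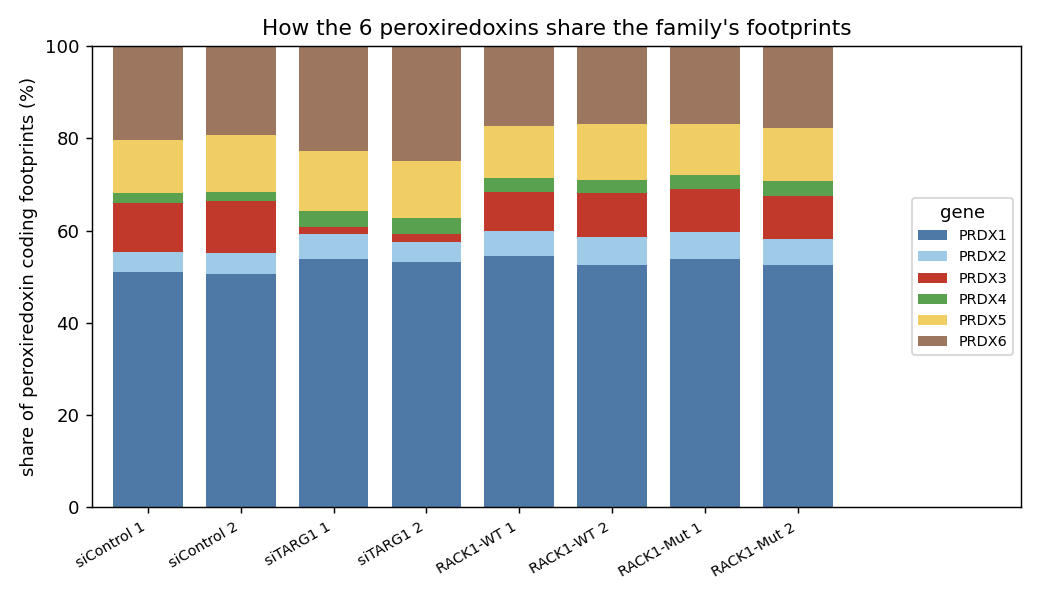
Share of the coding footprints of PRDX1 to PRDX6 that fell on each member, in percent, as 1 stacked bar per library, each bar adding up to the whole family. The PRDX3 segment is 10.6% and 11.4% in siControl, 1.46% and 1.68% in siTARG1, and 8.36% to 9.55% in the RACK1 libraries.

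RACK1-Mut was set against RACK1-WT to see whether the mono(ADP-ribose) acceptor sites of RACK1 matter for ribosome occupancy. Footprints on the RACK1 coding sequence were lower in RACK1-Mut, at 74.6% of the RACK1-WT mean (log2 fold change -0.42, DESeq2 adjusted p 1.34e-08). These counts pool endogenous RACK1 and the HA-tagged transgene, which were not separated here. The mutated sites and the lower RACK1 footprints cannot be told apart in this comparison. These libraries played no part in the choice of the genes, so the members can be tested here. PRDX3 had 1370 and 1441 normalized counts in RACK1-WT and 1423 and 1418 in RACK1-Mut. The RACK1-Mut values lie between the RACK1-WT values. The log2 fold change was 0.02 (SE 0.0884, 95% interval -0.16 to 0.19), with an unadjusted p of 0.857 and an adjusted p of 1.00 by DESeq2. A difference of the size seen in siTARG1 lies far outside this interval, and its nearest bound is -0.16.

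None of the 9 members passed the test in RACK1-Mut cells by DESeq2, and 0 of 9 had an unadjusted p below 0.05, in a comparison where 0.0799% of all 12520 genes tested were called. By edgeR's quasi-likelihood test 0 of 9 were called too. The lowest unadjusted p among the members was 0.202, for PRDX5, which had 1847 and 1835 normalized counts in RACK1-WT and 1677 and 1745 in RACK1-Mut (log2 fold change -0.11, SE 0.0827, interval -0.27 to 0.06). PRDX1 had 8937 and 7939 against 8252 and 8002 (-0.05, SE 0.0739, interval -0.20 to 0.09). PRDX4 had 488 and 433 against 493 and 485 (0.09, SE 0.131, interval -0.17 to 0.34). All members' estimates lay between -0.11 and 0.09, with a median of -0.03. The groups did not overlap in 2 of the 9, PRDX2 (894 and 900.4 against 867 and 853) and PRDX5, beside 37.6% of all genes tested.

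The precision of the other members differed with their counts. For PRDX6 (2856 and 2548 against 2589 and 2721) the interval was -0.19 to 0.14, and for TXN (2039 and 1981 against 1990 and 2116) it was -0.13 to 0.19. For TXN2 (179 and 187 against 193 and 179) it was -0.35 to 0.40. For SRXN1, with 24.7 and 40.9 against 26.2 and 35.6 normalized counts, it was -0.997 to 0.82, so that a difference of up to about that size in either direction was not detectable at this depth. As shares of the family, PRDX3 took 8.36% and 9.55% in RACK1-WT and 9.30% and 9.32% in RACK1-Mut. Exact two-sided permutation tests of the 6 shares gave p-values from 0.333 to 1.0, and 0.333 is the smallest p that 2 libraries against 2 allow.

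Footprints on the untranslated regions of the members were few. PRDX3 had 0 to 4 counts in its 5′ UTR per library, with 0 in both siTARG1 libraries, and 0 to 3 in its 3′ UTR. Nearly all of its exon counts thus lay in the coding sequence in every group. Its counted 5′ UTR is 43 bases long, against 359 for PRDX1 and 205 for TXN, which leaves less room for counts. PRDX3 had 154 and 130 exon counts in the siTARG1 libraries, too few to read a difference from the 0 values there. TXN had 2.15% to 3.41% of its exon counts in the 5′ UTR per library, and PRDX1 had 0.737% to 1.80%. The RACK1-WT libraries alone spanned 0.737% and 1.75% for PRDX1, so no difference between groups is read from these shares. Over all regions the 5′ UTR share was 3.81% to 4.29% per library.

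The 3′ UTR of PRDX3 holds a 7-mer, GAACATA, that was named in an earlier look at these data as frequent among genes lower in siTARG1 cells. It is printed here because PRDX3 is the only one of the 9 members with any of the 4 7-mers searched in the annotated 3′ UTR (on the transcript strand, TGAACAT with GAACATA, its neighbour shifted by 1 letter, and TGAATAT with GAATATA, likewise shifted). The 7-mer is in capitals and starts at base 242 of the 760 bases of the 3′ UTR. The whole printed stretch lies at chr10:120927734-120927760 on the minus strand (GRCh37).
PRDX3: agtttctacaGAACATAatttgcctct
GAACATA was found in 8.4% of the 18281 genes with an annotated 3′ UTR, TGAACAT in 13.37%, TGAATAT in 17.31% and GAATATA in 13.19%. Longer UTRs have more room for a match. The median over genes was 1048 bases, and those of the members ran from 62 bases in PRDX4 to 2099 in SRXN1. TGAACAT or GAACATA was present in 38.6% of 1054 genes called lower in siTARG1, 14.7% of 842 called higher and 17.7% of 9597 not called. The median UTR lengths of these sets were 1528, 1770 and 1276 bases. Since the 7-mers came from an earlier look at these same data, the 38.6% is description and supports nothing. A match is a description of the letters and not a site, and its part in the PRDX3 value was not tested.

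Over the 8 libraries, the 3 genes whose pattern was most like that of PRDX3 among 6717 genes averaging 100 or more normalized counts were TMX1, CAPNS1 and PRKAA1. The measure was Pearson's r of log2(normalized count + 1), and it was 0.998 for each, given as a description. All 8 points share 4 groups, and the 2 siTARG1 libraries hold the low values of all these genes. TMX1, a membrane-bound thioredoxin-like protein of the endoplasmic reticulum, had 358 and 393 counts on the 8-library scale in siControl, 95.1 and 94.5 in siTARG1 and 360 to 382 in the RACK1 libraries. In siTARG1 CAPNS1, the small calpain subunit, was at 28.2% of its siControl mean (log2 fold change -1.83), and PRKAA1, a catalytic subunit of AMP-activated kinase, at 47.7% (-1.07), with no test given since both were picked for this pattern. PRDX3 was lower than any of them, at 11.99%. TMX1 carries 3 TGAACAT and 1 GAACATA in a 3′ UTR of 3136 bases, PRKAA1 carries 1 TGAACAT, and CAPNS1 carries none of the 4. Within the set the r with PRDX3 was highest for PRDX1 (0.785) and PRDX5 (0.751) and was below 0 for PRDX4 (-0.10), TXN2 (-0.12) and PRDX6 (-0.39).

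**Figure D4:**
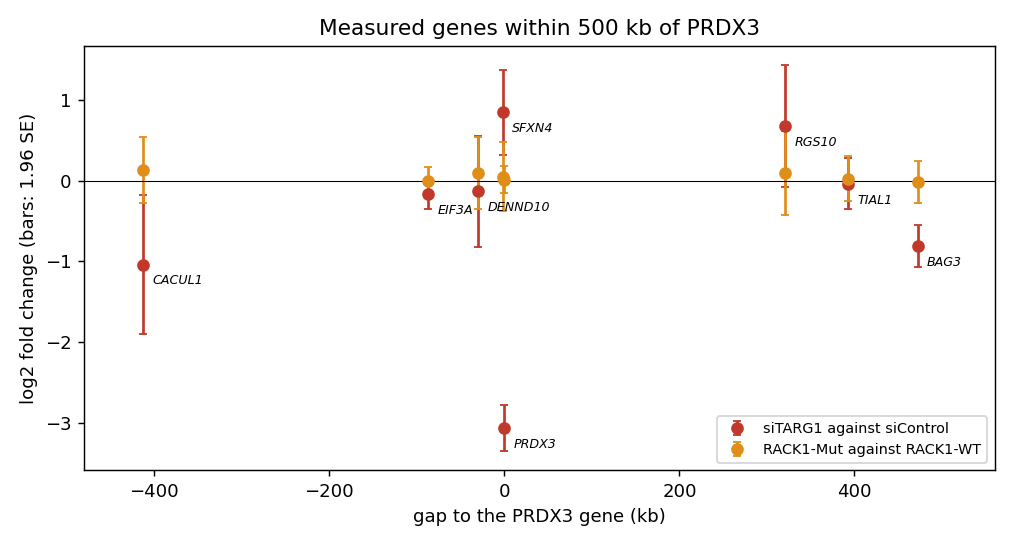
Log2 fold change of PRDX3 and of the tested genes within 500 kb of it on chromosome 10, against the gap to the PRDX3 gene in kilobases, for both comparisons, with 95% intervals as bars. In siTARG1 PRDX3 stands at -3.07 and SFXN4, next to it, at 0.85, and in RACK1-Mut all 8 genes lie between -0.01 and 0.14.

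The genes around PRDX3 moved in both directions in siTARG1, and none was as low as PRDX3. SFXN4, a mitochondrial inner membrane protein, is 2.01 kb away on the same strand and had 76.5 and 83.4 normalized counts in siControl and 152 and 135 in siTARG1, so it rose (log2 fold change 0.85, SE 0.269, adjusted p 0.0128). On the other side the nearest tested gene was RGS10, 321 kb away, which was not called (0.68, SE 0.385, adjusted p 0.24). Of the 7 tested neighbours within 500 kb, 2 were called in siTARG1 (beside 16.4% of all genes tested). The other was BAG3, a co-chaperone 473 kb away, which fell (-0.81, SE 0.131, adjusted p 2.62e-08). The largest difference among the 7 was that of CACUL1, 412 kb away, with 71.2 and 46.5 normalized counts in siControl and 32.5 and 24.7 in siTARG1, which was not called (-1.04, SE 0.441, adjusted p 0.0877). CACUL1 was called by edgeR (adjusted p 0.0083), from exon counts (0.0305) and with all 8 libraries in the DESeq2 fit (0.00664). BAG3 and CACUL1 are named after their values were seen. None of the 7 was called in RACK1-Mut. The call of SFXN4 was lost whenever 1 of the 4 libraries was left out (log2 fold change 0.76 to 0.94), while that of BAG3 was kept.

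The enzymes that supply and restrain the thioredoxins were tested in the same fits. TXNRD1, the cytosolic thioredoxin reductase, had 850 and 895 normalized counts in siControl and 584 and 613 in siTARG1 and fell (log2 fold change -0.54, SE 0.114, DESeq2 adjusted p 4.12e-05). TXNIP, which binds and inhibits thioredoxin, had 1377 and 1244 against 2229 and 2048 and rose (0.71, SE 0.0911, adjusted p 8.61e-13). TXNRD2, the mitochondrial reductase that serves TXN2 and PRDX3, had 96.7 and 117 against 104 and 106 and did not pass the test (-0.02, interval -0.56 to 0.52). The reductase and the inhibitor of the cytosolic system thus moved in opposite directions in siTARG1 cells. NFE2L2 (NRF2), the transcription factor of many of these genes, had 2066 and 2200 against 1585 and 1730 and fell (-0.37, SE 0.0861, adjusted p 0.000361), and KEAP1, its inhibitor, did not pass (0.08, adjusted p 0.812). Without siTARG1 replicate 1 the adjusted p was 0.0674 for TXNRD1 and 0.198 for NFE2L2, and without siControl replicate 2 it was 0.1001 for NFE2L2. In RACK1-Mut none of these 5 passed. The log2 fold changes there were -0.01 for TXNRD1, 0.01 for TXNIP and for KEAP1, 0.14 for NFE2L2 (unadjusted p 0.0645) and -0.40 for TXNRD2 (unadjusted p 0.0895), each with an adjusted p of 1.00.

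The wider redox and mitochondrial setting was read from 6 lists of 124 genes, of which 106 were tested in each comparison. In siTARG1, 34 of the 106 were called (32.1%, beside 16.4% of all genes tested), 14 higher and 20 lower, with a median log2 fold change of -0.04. The lists were chosen with earlier results of these data known, so this share is description only. Most list genes named below were picked as called genes with large changes in this same comparison. Their adjusted p-values come from the fit over all genes, describe that fit and are no independent support. All genes tested also include 935 that DESeq2 gave no adjusted p and that could not be called. With 1 library left out, 10 to 13 of the 106 were called. In RACK1-Mut, 0 of the 106 were called by DESeq2 and 0 by edgeR, with 7 and 14 at an unadjusted p below 0.05. The lists share a few genes, such as TXNRD1, PGD and ME1, which count in each list they belong to.

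In the thioredoxin and glutaredoxin list, 5 of 19 tested genes were called in siTARG1 (26.3%, beside 16.4% of all genes tested). Of these, 2 were higher and 3 lower (list median -0.09). TMX1, which was called, had 308 and 337 normalized counts in siControl and 81.6 and 81.0 in siTARG1 (log2 fold change -1.99, SE 0.214). No p-value is given for TMX1, since it was also picked for a pattern that the siTARG1 values set. TMX3, another thioredoxin-like protein of the endoplasmic reticulum, fell from 217 and 272 to 122 and 110.2 (-1.06, adjusted p 3.85e-05). SESN2, a stress-induced protein linked to peroxiredoxin repair, rose from 80.9 and 79.9 to 228 and 154 (1.26, adjusted p 6.01e-05). TXNRD1 and TXNIP were the other 2 called. TMX3 lost its call without siControl replicate 2 (log2 fold change -0.90) and SESN2 without siTARG1 replicate 1 (0.94).

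Among other enzymes that remove peroxide and superoxide, 7 of 16 were called (43.8%, beside 16.4% of all genes tested). Of these, 2 were higher and 5 lower (list median -0.07). SOD2, the superoxide dismutase of the mitochondrial matrix, had 130.1 and 142 normalized counts in siControl and 233 and 223 in siTARG1 and rose (0.75, adjusted p 0.00414). MGST3, a microsomal glutathione transferase, rose too (0.63, adjusted p 0.000619). The 5 that fell were MSRB1 (-0.85, adjusted p 0.0222) and MSRB3 (-1.95, adjusted p 2.42e-06), both methionine sulfoxide reductases, GSTK1 (-0.52, adjusted p 0.00485), a glutathione transferase, catalase CAT (-0.44, adjusted p 0.00109) and CCS (-0.49, adjusted p 0.0207), the copper chaperone of SOD1. MSRB3, CAT and CCS were named after their values were seen. SOD2, which makes hydrogen peroxide in the compartment of PRDX3, and PRDX3 thus had opposite signs. Of these 7 calls, that of MSRB3 was kept with each library left out in turn, and those of the others were lost in 3 or 4 of the 4 such fits, in which the log2 fold changes ran from 0.68 to 0.81 for SOD2, 0.60 to 0.67 for MGST3, -1.25 to -0.55 for MSRB1, -0.54 to -0.50 for GSTK1, -0.51 to -0.36 for CAT and -0.60 to -0.38 for CCS.

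In the list for glutathione and NADPH supply 8 of 18 were called (44.4%, beside 16.4% of all genes tested), 4 higher and 4 lower (median -0.14). IDH1, the cytosolic NADP-dependent isocitrate dehydrogenase, had 10690 and 9947 normalized counts in siControl and 3236 and 3305 in siTARG1 and fell (-1.66, SE 0.0657, adjusted p 5.37e-137). ME1, the cytosolic malic enzyme, fell from 1061 and 973 to 350.4 and 349.7 (-1.54, SE 0.122, adjusted p 1.71e-33). Both make NADPH in the cytosol. GSR, glutathione reductase, rose (0.66, adjusted p 2.55e-06), as did NADK2, the mitochondrial NAD kinase (0.76, adjusted p 0.0387). The call of NADK2 was lost with any 1 library left out (log2 fold change 0.67 to 0.84), and those of IDH1, ME1 and GSR were kept.

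Of 26 tested genes in the NRF2 list, 10 were called (38.5%), 1 higher and 9 lower (median -0.18). Over all genes tested 16.4% were called, 7.18% higher and 9.19% lower. Beside NFE2L2, ME1 and TXNRD1, those that fell included UGDH (-0.90, adjusted p 7.96e-12), which makes UDP-glucuronate, and EPHX1, microsomal epoxide hydrolase (-0.66, adjusted p 3.53e-12). Both calls were kept with each library left out in turn. NQO1, a quinone reductase often used as an NRF2 target, fell less (-0.42, adjusted p 0.000465). The 1 gene that rose was AKR1B1, an aldose reductase (0.45, adjusted p 0.00836). NQO1 and AKR1B1 were named after their values were seen, and both lost their call with any 1 library left out (-0.43 to -0.41 and 0.38 to 0.50).

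The mitochondrial matrix, where PRDX3 works, was read from genes of its protein folding and turnover. In this list 4 of 20 were called (20%, beside 16.4% of all genes tested), and all 4 were higher (list median 0.12). SPG7 (0.70, adjusted p 0.015) and AFG3L2 (0.38, adjusted p 0.0204), which together form the matrix AAA protease, TRAP1, a mitochondrial HSP90 (0.44, adjusted p 0.00166), and GLUD1, glutamate dehydrogenase (0.34, adjusted p 0.017), rose. In the iron-sulfur list 3 of 14 were called (21.4%, median -0.11). Both shares are near that of all genes. SFXN4 rose, and ISCU, the scaffold on which clusters are built (-0.75, adjusted p 0.0222), and LYRM4, a partner of the cysteine desulfurase that was named after its values were seen (-1.39, adjusted p 0.00239), fell. All 7 of these calls were lost with any 1 library left out. The log2 fold changes then ran from 0.64 to 0.74 for SPG7, 0.34 to 0.42 for AFG3L2, 0.39 to 0.49 for TRAP1, 0.30 to 0.38 for GLUD1, 0.76 to 0.94 for SFXN4, -0.77 to -0.72 for ISCU and -1.56 to -1.21 for LYRM4, so that none changed sign. Neither list held a tested gene as low as PRDX3, and the lowest of them was LYRM4.

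**Figure D5:**
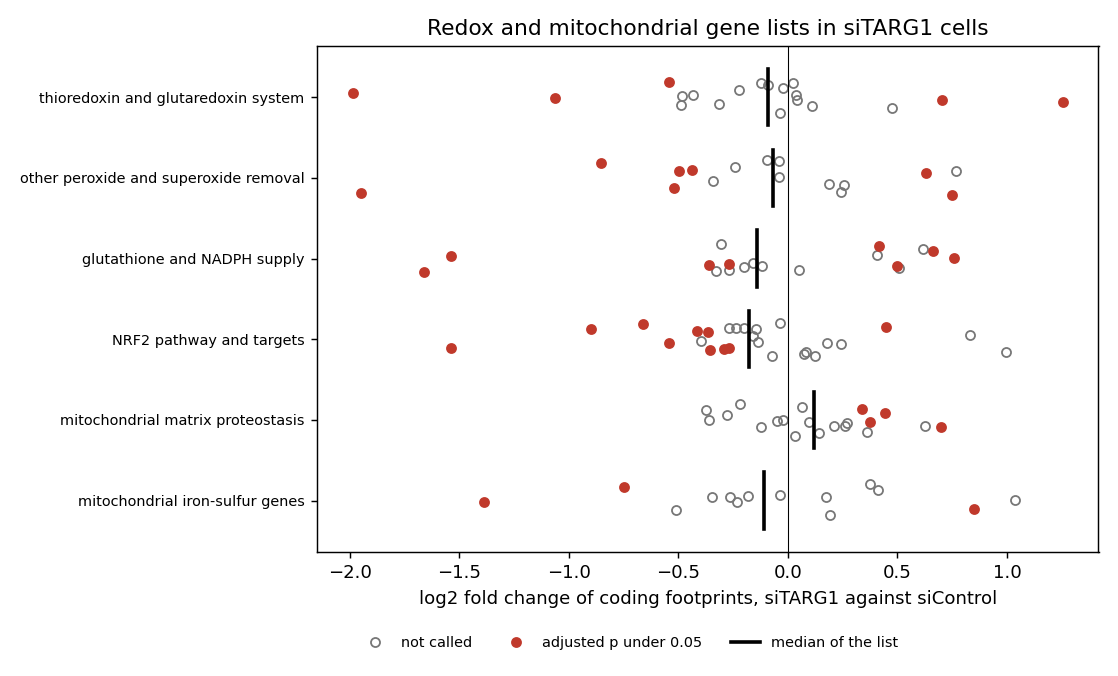
Log2 fold change in siTARG1 against siControl for the tested genes of the 6 lists, with called genes (DESeq2 adjusted p below 0.05) filled, other genes open and the median of each list as a vertical bar. Medians lie between -0.18 (NRF2 list) and 0.12 (mitochondrial matrix list), and the lowest gene is TMX1 at -1.99, above PRDX3 at -3.07, which is in none of the lists.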

How the data were processed

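Footprints of 28 to 34 nt were made with RNase I from OVCAR3 cells, 2 libraries in each of 4 groups. The authors aligned them to the hg19 transcriptome with TopHat 2.1.1 and Bowtie 1.1.2, allowing up to 64 hits per read, and counted reads of 26 to 36 nt by Plastid on GENCODE 24 models. The deposited files hold raw counts per region (exon, 5′ UTR, CDS, 3′ UTR). RPKM columns were not used. The offset is 14 nt from the 5′ end in the file headers, while the methods give the 3′ end. Whether molecular identifiers were collapsed is not given in the sources used here, so counting intervals treat reads as molecules. Multiple hits let pseudogenes share reads with the members.

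Symbols came from GENCODE 44 lifted to GRCh37 (97.3% of regions). The main test was DESeq2 1.42.0 in R 4.3.3 (Wald test) on the 4 libraries of a comparison, for genes with at least 10 summed coding counts, with Benjamini-Hochberg adjustment over all genes and calls at an adjusted p below 0.05. DESeq2 gave no adjusted p to 935 genes of the siTARG1 comparison. edgeR 4.0.16, TMM factors, other filters, exon counts, a replicate block, all 8 libraries in 1 fit and leaving out each library were alternatives. The pipeline was tested on simulated data. Replicate libraries differed by more than sampling noise (chi-square per gene 1.68 to 3.13). Coding totals of 3100947 to 6604190 limit precision for members with few counts.

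The members and lists were chosen with earlier results of these data known. Named genes were the members, OARD1, RACK1, TXNRD1, TXNRD2, TXNIP, NFE2L2, KEAP1, the nearest tested gene on each side of PRDX3, the 3 genes most like it, and in each list up to 4 called genes with the largest change, a mean of at least 100 normalized counts and no overlap between groups. Identity was computed on coding nucleotides in place of the planned protein alignment.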

Additional observations from a re-analysis of the deposited data

How the results depend on the processing

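With 2 libraries per group, small differences were called or lost by the choice of test. DESeq2 called 10 genes in RACK1-Mut against RACK1-WT, edgeR 30, and the fits without 1 library 1 to 3. In siTARG1 against siControl DESeq2 called 1974, edgeR 3470, and the fits without 1 library 564 to 744. The members called in siTARG1 numbered 4, and 1 in each fit without 1 library. Genes of the pathway lists called there numbered 34, and 10 to 13 without 1 library. In these fits 1 group has a single library, which is assumed to vary like the others. No member was called in RACK1-Mut under any of these alternatives. The siTARG1 values of PRDX3 were used to choose it, so its calls there support nothing. With 10 counts required in every library or with exon counts, PRDX1 lost its siTARG1 call. Calls of members in siTARG1 are description only, under these settings and those below. Exon counts gave PRDX3 9.23% of the family in RACK1-Mut, against 9.31% from coding counts. SRXN1, TXN2 and TXNRD2 are limited by depth.

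Whether replicate numbers pair the libraries is not known. Deviations of same-numbered libraries correlated at 0.0832 (RACK1) and 0.0307 (siRNA). Counting noise also lowers such a correlation, so these values cannot exclude a pairing. A replicate block called 6 genes in RACK1-Mut and 1125 in siTARG1, with 2 members (PRDX3 and TXN) and 22 genes of the lists.

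Signs turned with 1 library left out for results that did not pass the test. In RACK1-Mut the log2 fold changes then ran from -0.14 to 0.035 for PRDX1, -0.0195 to 0.0531 for PRDX3, -0.11 to 0.0603 for PRDX6, -0.0136 to 0.0729 for TXN, -0.0294 to 0.0811 for TXN2, -0.40 to 0.32 for SRXN1, -0.0688 to 0.0442 for TXNRD1, -0.16 to 0.16 for TXNIP and -0.0782 to 0.0939 for KEAP1. In siTARG1 they ran from -0.31 to 0.0518 for PRDX2, -0.0377 to 0.0635 for PRDX6, -0.34 to 0.051 for TXN2, -0.16 to 0.11 for TXNRD2 and -0.0315 to 0.187 for KEAP1. The planned protein alignment was not run.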
